A study of Homo sapiens with 12 samples.

Results

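A549, an established human lung adenocarcinoma cell line, was followed here through its response to 1 of 2 siRNA mixtures against the coactivators YAP and TAZ, the one numbered first. RNA sequencing had been done on 12 libraries of these cells, in 3 groups of 4, and 8 of the 12 form the comparison described: 4 libraries titled siCo, of cells with a non-targeting control siRNA, and 4 titled siYAP/TAZ#1, of cells with the first combination. They were chosen by title, and all genes that passed a filter on low counts were used, which left 21581 of the 60617 genes listed. The other 4 libraries, titled siYAP/TAZ#2, carry a second combination and serve for the estimate of spread and for a comparison of the 2 combinations. RNA of every group was taken 24 hours after transfection. The labels give no genetic change besides the siRNAs, so all groups share the genome of the A549 line. The transfected siRNA is the only difference between groups that the labels name. The knock-down is transient and leaves part of each transcript. The series calls the 4 libraries of a group biological replicates, and whether they came from separate cultures is not stated, so p-values measure the spread between these libraries.

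YAP (gene YAP1) and TAZ (gene WWTR1) are transcriptional coactivators without a DNA-binding domain of their own. They bind mainly to TEAD transcription factors, often at enhancers that also hold AP-1, and raise genes of growth, adhesion and the cytoskeleton. The LATS kinases of the Hippo pathway phosphorylate both proteins and keep them out of the nucleus. In lung epithelium they take part in development and in regeneration after injury.

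Promoter windows of 5 genes are shown because the genes fell or rose far and because their windows hold the recognition letters of a factor linked to the pathway or to the groups described further on. The windows are 120 bases long, end at or before the transcription start that RefSeq gives, read 5′ to 3′ on the strand of the gene, and come from RefSeq (GRCh38.p14). Capitals mark CATTCC (the TEAD motif) in CCN2 and ANKRD1, TGANTCA (the AP-1 motif) in IL11 and CLDN2, and TGACNNNGC (the core of the antioxidant response element) in GPX2, on either strand.
CCN2 (chr6:131951442-131951561, minus strand): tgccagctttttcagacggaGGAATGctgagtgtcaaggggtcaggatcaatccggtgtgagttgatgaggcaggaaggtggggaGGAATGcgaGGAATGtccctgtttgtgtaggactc
ANKRD1 (chr10:90921199-90921318, minus strand): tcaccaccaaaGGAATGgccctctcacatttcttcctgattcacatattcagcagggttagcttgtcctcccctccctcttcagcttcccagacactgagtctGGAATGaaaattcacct
IL11 (chr19:55370497-55370616, minus strand): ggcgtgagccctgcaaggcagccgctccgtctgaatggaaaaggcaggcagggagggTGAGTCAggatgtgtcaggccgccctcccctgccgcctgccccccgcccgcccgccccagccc
CLDN2 (chrX:106900044-106900163, plus strand): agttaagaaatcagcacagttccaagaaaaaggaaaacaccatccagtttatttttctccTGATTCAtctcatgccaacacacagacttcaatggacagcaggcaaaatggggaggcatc
GPX2 (chr14:64942804-64942923, minus strand): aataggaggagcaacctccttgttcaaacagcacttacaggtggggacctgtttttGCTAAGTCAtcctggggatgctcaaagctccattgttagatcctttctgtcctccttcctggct
Over the 250 bases before the start in 35116 RefSeq promoters, searched on both strands, CATTCC stood in 11.9%, TGANTCA in 6.57% and TGACNNNGC in 10.9%. A match describes the letters only. GENCODE v29 lets ANKRD1 and GPX2 start further upstream, so that part of these windows lies inside the gene as annotated there. The AP-1 letters stand in genes that fell, IL11 and ANKRD1 (tgattca, not in capitals there), and in one that rose, CLDN2.

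Levels are given as CPM, the counts of a gene per 1e6 counts of the library after TMM scaling, in which most genes are taken to be unchanged. Changes are log2 values ± standard error for siYAP/TAZ#1 against siCo, with adjusted p from edgeR's quasi-likelihood test (Benjamini-Hochberg over 21581 genes), and a gene is called lower or higher at an adjusted p under 0.05. Where a gene is given from one CPM to another, these are the means of siCo and of siYAP/TAZ#1, each ± SD over n = 4 libraries. The knock-down was read first. YAP1 had 125, 116, 124 and 121 CPM in siCo and 17.9, 19.2, 20.5 and 17.3 CPM in the treated libraries, a change of -2.69 ± 0.069 (adjusted p = 1.91e-13). WWTR1 had 239, 230.0, 254 and 240.2 CPM and 31.2, 33.1, 33.5 and 33.7 CPM, a change of -2.87 ± 0.064 (adjusted p = 6.20e-14). All 4 treated libraries lay below all 4 controls for both genes, with a two-sided p of 0.0286 from an exact permutation of the library labels, the smallest that 4 against 4 libraries allow. In bulk RNA, fewer cells with a transcript and less of it per cell cannot be told apart, here and in all results that follow.

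The known targets are covered briefly. All 22 genes of a published YAP/TAZ target signature were lower, against 18.5% of all genes tested, with a median log2 change of -1.07; 21 were lower with scaling by library size alone. The matricellular protein gene CCN2, one of the shown promoters, stood at 22.9, 23.2, 23.4 and 21.2 CPM in siCo and 1.99, 3.66, 2.399 and 2.78 CPM with siYAP/TAZ#1. ANKRD1, a nuclear ankyrin repeat protein and the other TEAD example, stood at 8.26, 8.72, 8.44 and 9.45 CPM and 1.096, 1.75, 1.699 and 1.46 CPM. In a wider conserved YAP signature, 30 of 54 tested genes were lower and 4 higher (23 and 9 with library size alone), with 2 higher without replicate 3 of siCo. Of 29 genes of the Hippo pathway, YAP1 and WWTR1 included, 16 were lower and 3 higher (13 and 7). On log2(TPM + 1) with limma, the lower members of these lists were 9, 8 and 5. Both signatures were drawn up by others to follow YAP and TAZ.

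The response reached well beyond these genes. At an adjusted p under 0.05, 3999 genes were lower (18.5% of those tested) and 3531 higher (16.4%), and 9240 differed at an unadjusted p under 0.05. Large changes were more often increases: 850 genes rose by at least 1 on the log2 scale (3.94%) and 317 fell by as much (1.47%). The split between lower and higher depends on the scaling: the share of higher genes among those called was 46.9% with TMM, 63.8% with upper quartile scaling and 75.5% with library size alone, and 91.8% with limma on log2(TPM + 1), where 156 genes were lower and 1736 higher. The median change of all genes, 0.023 with TMM, moved to 0.125, 0.197 and 0.19 under these. Changes below are therefore relative to the TMM scale.

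**Figure D1:**
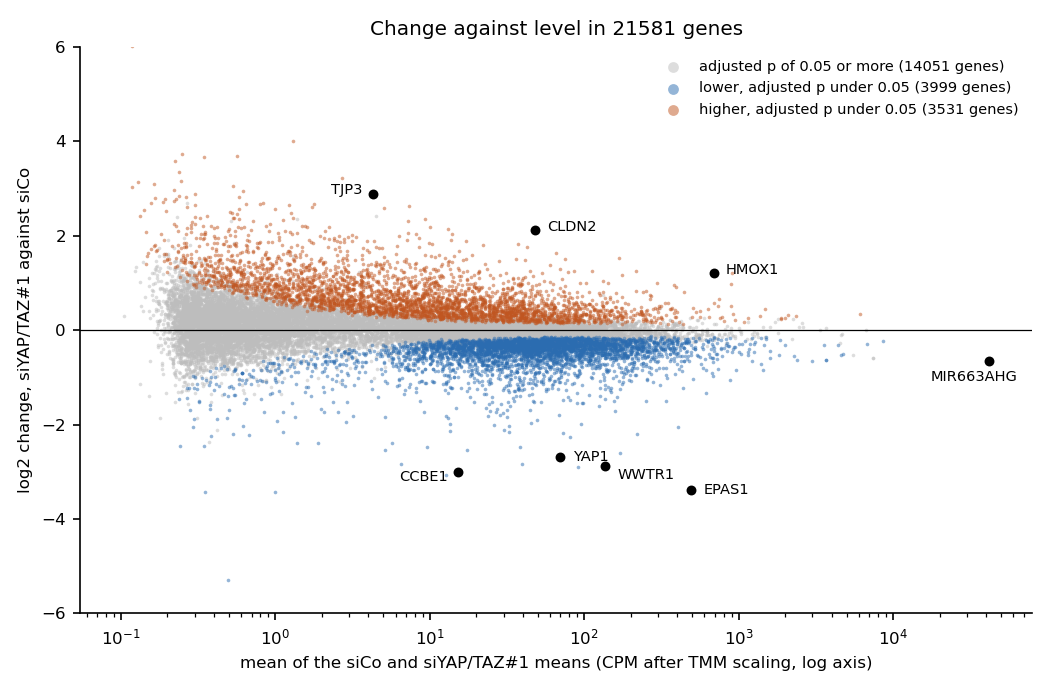
Each point is 1 of 21581 genes, with the mean CPM of both groups on the x axis (log scale) and the log2 change of siYAP/TAZ#1 against siCo on the y axis; colours mark the 3999 lower and 3531 higher genes, and black points name 8 genes. Lower genes lie mostly at higher CPM and higher genes at lower CPM, and 1 gene with a change of more than 6 in size falls outside the plot.

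Direction went with level and class. Among 6178 coding genes with a mean of 30 CPM or more, 41.4% were lower and 13.4% higher. Among 5250 coding genes under 10 CPM, 5.77% were lower and 26.2% higher. All 14805 coding genes had 25.6% lower and 19.5% higher, with a median change of -0.023. The 4792 lncRNA genes had 3.13% lower and 9.93% higher, with a median change of 0.13. By GC content of the transcripts, in 5 classes of equal size, the coding genes of the lowest class had 28.5% lower and 13.7% higher, and those of the highest class 17.4% lower and 25.6% higher. In 5 such classes by level, the highest class had, with library size alone, 23.2% lower and 25% higher, so that the excess of lower genes was absent there. None of the 13 coding genes of the mitochondrial genome was called by edgeR's quasi-likelihood test, with log2 changes from -0.0037 to 0.46 and a lowest adjusted p of 0.0983; 2 had an unadjusted p under 0.05, DESeq2 called 0, and limma on log2(TPM + 1) called 0.

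**Figure D2:**
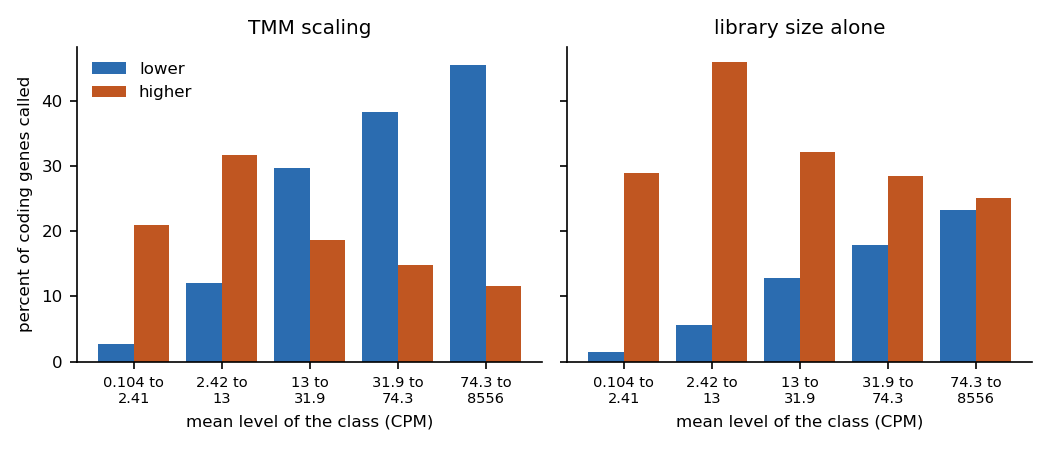
Bars give the percent of coding genes called lower or higher in 5 classes of equal size by mean level (CPM on the x axis), with TMM scaling on the left and library size alone on the right. With TMM the share lower climbs from 2.70% in the lowest class to 45.4% in the highest, while with library size alone the highest class has 23.2% lower and 25% higher.

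Outside the target signatures and the Hippo genes, the 15 coding genes with the largest decreases fell by 2.00 to 3.39 on the log2 scale. EPAS1, which encodes the hypoxia-inducible factor subunit HIF-2 alpha, led them. In siCo, EPAS1 stood at 898, 899, 898 and 913 CPM, against 85.1, 90.3, 81.2 and 87.9 CPM with siYAP/TAZ#1, a change of -3.39 ± 0.055 (adjusted p = 1.06e-15). Its level thus fell 10.5-fold. CCBE1 encodes a secreted protein needed for lymphatic vessel growth. In siCo, CCBE1 stood at 27.01, 26.03, 28.1 and 27.9 CPM, against 3.34, 3.49, 3.77 and 2.92 CPM with siYAP/TAZ#1 (-3.01 ± 0.087, adjusted p = 7.93e-13). PODXL, the sialomucin podocalyxin of apical cell surfaces, also separated widely. In siCo, PODXL stood at 283, 299.8, 296 and 299 CPM, against 47.4, 51.4, 47.2 and 48.7 CPM with siYAP/TAZ#1 (-2.597 ± 0.061, adjusted p = 7.66e-14). All treated libraries lay below all controls for these, which the choice of genes required.

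IL11 encodes an interleukin of the IL6 family and is the faller whose promoter window is shown with AP-1 letters in capitals. In siCo, IL11 stood at 67.3, 61.4, 70.4 and 59.5 CPM, against 12.7, 12.7, 11.7 and 9.36 CPM with siYAP/TAZ#1 (-2.48 ± 0.15, adjusted p = 4.00e-09). FOSL1, an AP-1 subunit, had 114, 117, 138 and 111 CPM in siCo and 25.5, 27.4, 28.3 and 24.9 CPM with siYAP/TAZ#1. The actin-binding transgelin gene TAGLN2 fell from 646 ± 14 to 157 ± 6.3 CPM, and the cell adhesion gene CADM1 from 52.5 ± 1.31 to 12.9 ± 0.64 CPM. LY6K, a GPI-anchored surface protein, fell from 16.1 ± 0.669 to 2.89 ± 0.222 CPM. SLC4A4, a sodium bicarbonate cotransporter, fell from 21.9 ± 1.31 to 4.97 ± 0.16 CPM, and MYBL1, a MYB family transcription factor, from 48.9 ± 2.72 to 11.4 ± 1.51 CPM. The rest of the 15 were CNIH1, MAT2B, MIS18A, MPC2 and TMEM184C, which are described with the second combination below.

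The 15 coding genes with the largest increases rose by 1.92 to 2.88 on the log2 scale, most of them from a few CPM. TJP3 encodes ZO-3, a scaffold of tight junctions. In siCo, TJP3 stood at 0.887, 0.986, 1.46 and 0.825 CPM, against 6.63, 8.37, 8.52 and 6.66 CPM with siYAP/TAZ#1 (2.88 ± 0.17, adjusted p = 4.00e-09). CLDN2, a claudin that forms a cation pore in tight junctions, had the smallest standard error of the set. In siCo, CLDN2 stood at 17.4, 17.8, 17.7 and 17.9 CPM, against 75.6, 77.5, 74.8 and 82.5 CPM with siYAP/TAZ#1 (2.13 ± 0.054, adjusted p = 1.91e-13). SPDEF, an ETS transcription factor of secretory epithelial cells, rose from 5.698 ± 0.851 to 21.5 ± 2.67 CPM, and ANXA13, an annexin of epithelial cells, from 2.52 ± 0.252 to 10.1 ± 0.419 CPM.

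SHH, a Hedgehog ligand, had 2.81, 2.96, 2.66 and 2.85 CPM in siCo and 12.7, 12.5, 10.5 and 11.1 CPM with siYAP/TAZ#1 (2.05 ± 0.11, adjusted p = 7.33e-10). BMF, a BH3-only activator of apoptosis, had 2.23, 2.22, 2.1 and 1.59 CPM and 11.7, 12.9, 11.5 and 14.2 CPM (2.63 ± 0.12, adjusted p = 1.95e-10). All treated libraries stood above all controls for both, which the choice of these genes required. HABP2, a secreted hyaluronan-binding protease, rose from 1.44 ± 0.167 to 8.71 ± 0.651 CPM. The phosphatase gene PTP4A3 rose from 2.43 ± 0.135 to 12.1 ± 1.29 CPM, and BDKRB2, the bradykinin B2 receptor, from 4.81 ± 0.522 to 21.3 ± 1.67 CPM. CEND1, linked to cell cycle exit in neurons, rose from 3.65 ± 0.848 to 16.5 ± 1.37 CPM, and LRRC4B, a synaptic adhesion gene, from 1.34 ± 0.279 to 5.29 ± 0.523 CPM. VWA5B2, PRRT1B, SSPOP and the zinc finger gene ZNF467 complete the 15, with log2 changes of 2.36, 2.04, 2.04 and 1.95.

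**Figure D3:**
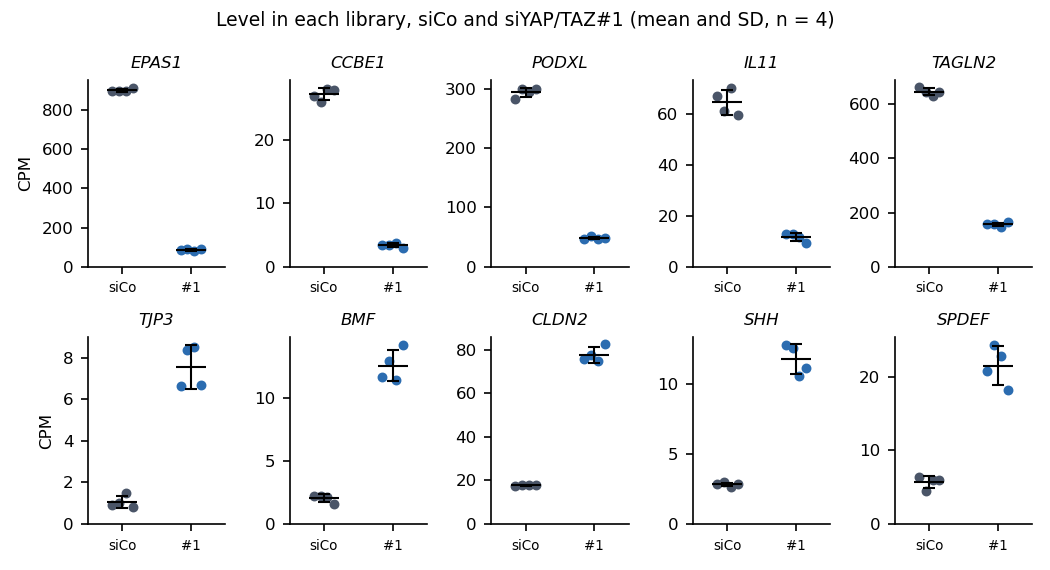
Points are the CPM of single libraries in siCo and siYAP/TAZ#1 (labelled #1) for 5 genes that fell (EPAS1, CCBE1, PODXL, IL11, TAGLN2) and 5 that rose (TJP3, BMF, CLDN2, SHH, SPDEF), with mean and SD of 4 libraries. The groups lie apart in all 10 genes, which their choice required, and EPAS1 stands at 902 CPM in siCo and 86.1 CPM with siYAP/TAZ#1.

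Ranked by the difference of mean CPM instead, FTL, AKR1C2 and CPLX2 rose most. FTL, the ferritin light chain, had 5285, 5455, 5158 and 5412 CPM in siCo and 6885, 6629, 6561 and 7084 CPM with siYAP/TAZ#1, and FTH1, the heavy chain, rose from 1845 ± 131 to 2319 ± 86.7 CPM. HMOX1, the haem oxygenase that frees iron from haem, had 413, 419, 412 and 417 CPM and 917, 993, 922 and 1029.5 CPM (1.22 ± 0.062, adjusted p = 6.13e-10). The aldo-keto reductases AKR1C2 and AKR1B10 rose from 550.0 ± 20.3 to 1271 ± 82.9 CPM (AKR1C2) and from 1253 ± 47.5 to 1716 ± 33.7 CPM (AKR1B10), and AKR1C2 shares reads with close paralogs, so its share is uncertain. The synaptic vesicle regulator CPLX2 rose from 601 ± 22.5 to 1187 ± 51.2 CPM, the carbonic anhydrase CA12 from 578 ± 10.5 to 911 ± 18.6 CPM, and the desaturase SCD from 1719 ± 73.9 to 2056 ± 81.6 CPM. SQSTM1, an autophagy receptor, changed by 0.26 ± 0.069, and the lncRNA MALAT1 by 0.29 ± 0.085. Ferritin genes have many processed copies, which this counting may not separate.

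The decreases in CPM were led by MIR663AHG, a lncRNA gene that took 3.83% to 5.56% of the counts of the siCo libraries and 2.18% to 3.92% of those with siYAP/TAZ#1. Its change was -0.65 ± 0.23 (adjusted p = 0.0391), with replicate 4 of siYAP/TAZ#1 lowest. SLC7A5, a carrier of large neutral amino acids, came next and fell from 5384 ± 149 to 3762 ± 201 CPM. KRT7, a keratin of simple epithelium, had 3481, 3483, 4043 and 3621 CPM in siCo and 2218, 2554, 2415 and 2133 CPM with siYAP/TAZ#1. MYH9, the heavy chain of non-muscle myosin, fell from 2893 ± 204 to 1867 ± 106 CPM, and the plakin gene PLEC from 5558 ± 559 to 3947 ± 378 CPM. The actin genes ACTB and ACTG1 changed by -0.24 ± 0.070 and -0.32 ± 0.054, and the filamin gene FLNA by -0.29 ± 0.10, lower with TMM, while on log2(TPM + 1) ACTB and FLNA turned to 0.14 and 0.010. The call of MIR663AHG was lost with DESeq2 (adjusted p = 0.0814) and, in edgeR, without replicate 1, 2 or 3 of siCo or replicate 1 or 4 of siYAP/TAZ#1 (adjusted p = 0.057 to 0.124, changes of -0.68 to -0.48). That of FLNA was lost without replicate 1, 2 or 3 of siCo or replicate 1, 3 or 4 of siYAP/TAZ#1 (adjusted p = 0.0525 to 0.0803, edgeR). With library size alone ACTB, FLNA and MIR663AHG were not called (adjusted p = 0.364, 0.217 and 0.0798, edgeR).

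Among lncRNA genes, 476 were higher (9.93% of 4792) and 150 lower (3.13%). Of those with at least 1 CPM and no overlap between groups, LINC00707 fell furthest. In siCo, LINC00707 stood at 11.3, 10.1, 12.3 and 11.98 CPM, against 1.41, 1.63, 1.75 and 1.55 CPM with siYAP/TAZ#1 (-2.84 ± 0.12, adjusted p = 1.19e-10). OIP5-AS1, also called Cyrano, had 81.96, 76.7, 75.7 and 89.2 CPM in siCo and 40.1, 37.7, 39.03 and 41.7 CPM with siYAP/TAZ#1. Its mean TPM hardly differed, at 10.5 in siCo and 10.15 with siYAP/TAZ#1. VPS9D1-AS1 fell from 62.9 ± 2.64 to 30.1 ± 1.24 CPM. SNHG15, a snoRNA host gene, fell from 13.9 ± 1.91 to 7.58 ± 1.31 CPM, and MIR503HG, a microRNA host gene, from 17.4 ± 2.13 to 9.61 ± 1.66 CPM. AFAP1-AS1 was the most uneven of those named, with 7.13, 9.73, 6.901 and 3.07 CPM in siCo and 2.94, 3.01, 2.62 and 1.41 CPM with siYAP/TAZ#1, so that its groups came close (-1.42 ± 0.35, adjusted p = 0.00449). LINC01783 and RPL26L1-AS1 fell by 0.92 and 0.87 on the log2 scale.

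Of the higher lncRNAs, MIAT is given by library. It had 2.78, 2.49, 2.36 and 2.65 CPM in siCo and 8.04, 7.75, 6.52 and 7.98 CPM with siYAP/TAZ#1 (1.55 ± 0.13, adjusted p = 1.48e-07). LMNTD2-AS1 rose from 1.43 ± 0.23 to 3.99 ± 0.247 CPM and SSTR5-AS1 from 0.793 ± 0.208 to 3.39 ± 0.81 CPM. LINC01942, LINC00574, LINC01948 and SYT9-AS1 rose from under 1 CPM, by 1.98, 1.76, 1.62 and 1.52. Whether counting used the strand is not given in the sources used here, so reads of a gene named AS and of its antisense partner cannot be told apart.

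Gene groups were described by the number of members called and by their median change, beside the coding genes as a whole (25.6% lower, 19.5% higher, median -0.023). Of 55 lists, 26 had more members lower than higher, 26 the reverse, and 3 as many of each. With library size alone, all 26 lists with more higher members kept that excess, while 15 of the 26 with more lower members turned to more higher ones. On log2(TPM + 1) with limma, where the median of all genes was 0.19, 24 of the 26 lists with more lower members had a median above 0 and 17 had no member called lower. Of the 26 with more higher members, 24 kept that excess there. The second figures given for a list below are those with library size alone. Named members are described for siYAP/TAZ#1, and some stood near or beyond siCo with siYAP/TAZ#2, as given further on. Groups of high level are to be read against the 41.4% lower among coding genes of 30 CPM or more. Histone modifiers (31.5% lower), vesicle genes (34.5%) and ubiquitin ligases (33.7%) were among those under it. Groups of lower level are to be read against coding genes of 2.42 to 12.97 CPM (12.1% lower, 31.7% higher) and of 12.98 to 31.9 CPM (29.6% lower, 18.7% higher).

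**Figure D4:**
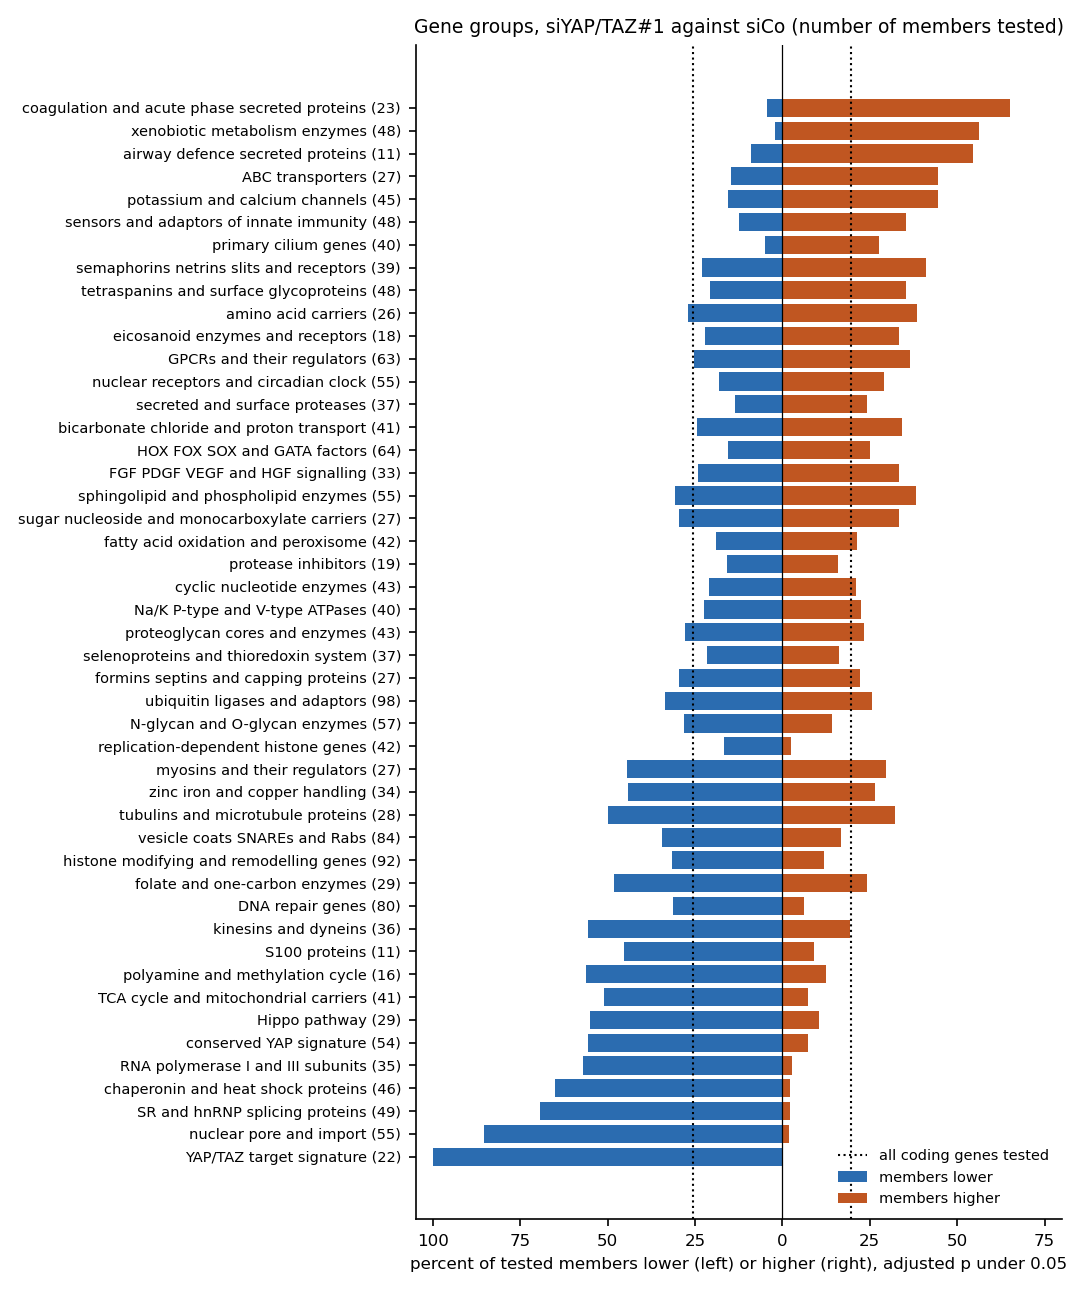
Bars give, for the gene groups shown (at least 10 members tested), the percent of tested members lower (left) and higher (right) at an adjusted p under 0.05, with the number tested in brackets, and dotted lines mark all coding genes (25.6% lower and 19.5% higher). The YAP/TAZ signature and nuclear pore genes lie at one end, and coagulation and xenobiotic genes at the other.

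Genes of transport between nucleus and cytoplasm were mostly lower on the TMM scale. Of 55 nucleoporins, importins and exportins tested, 47 were lower and 1 higher, with a median of -0.46 (27 and 2 with library size alone). On log2(TPM + 1), 1 was called lower and 0 higher, with a median of -0.066. SEH1L, a nucleoporin of the Y complex, fell furthest of those with the lowest adjusted p. In siCo, SEH1L stood at 47.9, 49.1, 49.8 and 50.05 CPM, against 13.98, 14.03, 13.7 and 12.99 CPM with siYAP/TAZ#1 (-1.85 ± 0.091, adjusted p = 3.99e-10). The import receptor IPO8 had 65.7, 60.7, 58.3 and 69.4 CPM and 24.2, 23.6, 22.1 and 27.8 CPM (-1.38 ± 0.096, adjusted p = 1.74e-08). The exportin XPO4 fell from 73.6 ± 5.43 to 34.5 ± 3.06 CPM, the scaffold nucleoporin NUP188 from 260.0 ± 6.11 to 153 ± 4.8 CPM, the basket nucleoporin NUP153 from 139 ± 5.12 to 82.6 ± 2.16 CPM, and RCC1, the exchange factor that loads Ran with GTP, from 111 ± 3.06 to 73.2 ± 2.72 CPM.

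RNA-processing and transcription machinery was more often lower than higher on the TMM scale, and its medians turned on TPM. Of 49 SR and hnRNP splicing proteins, 34 were lower and 1 higher (median -0.30; 12 and 2), while on log2(TPM + 1) 0 were lower with a median of 0.092. PTBP1, a repressor of exon inclusion, fell from 844 ± 30.6 to 597 ± 19.8 CPM, QKI, an RNA-binding protein of splicing and circular RNA formation, from 131 ± 10.6 to 87.3 ± 2.56 CPM, and SRSF1 from 248 ± 9.51 to 182 ± 7.17 CPM. The exception was NOVA1, a splicing factor known from neurons, which rose from 9.36 ± 0.483 to 13.9 ± 0.524 CPM. Of 35 genes of RNA polymerases I and III and their factors, which make ribosomal and transfer RNA, 20 were lower and 1 higher (9 and 2), and on log2(TPM + 1) 2 were lower with a median of 0.042. RRN3, the factor that recruits RNA polymerase I, had 53.5, 53.2, 57.1 and 55.6 CPM in siCo and 24.8, 23.7, 23.9 and 25.1 CPM with siYAP/TAZ#1. POLR3D fell from 72.3 ± 2.17 to 36.7 ± 1.16 CPM and POLR1G from 79.3 ± 4.67 to 38.3 ± 3.28 CPM.

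Chaperones gave 30 lower and 1 higher of 46 (median -0.32; 17 and 2), and on log2(TPM + 1) 0 were lower with a median of 0.047. None fell by 1 or more on the log2 scale: CCT5 of the TRiC chaperonin by 0.55, the ribosome-associated DNAJC2 by 0.68, HSPH1 by 0.49, and HSP90AB1 by 0.46. Genes of polyamines and the methylation cycle gave 9 lower and 2 higher of 16 (7 and 3), with 1 higher without any 1 of replicates 2 and 3 of siCo and 1, 2 and 3 of siYAP/TAZ#1. ODC1, the rate-limiting enzyme of polyamine synthesis, had 138, 148, 145 and 136 CPM in siCo and 81.9, 84.02, 79.99 and 79.5 CPM with siYAP/TAZ#1. AMD1, SMS and SRM, further enzymes of polyamine synthesis, fell by 0.90, 0.63 and 0.59, while SAT2 rose by 0.54.

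In the citric acid cycle and the mitochondrial carriers, 21 of 41 were lower and 3 higher, with a median of -0.17 (8 and 6). The share lower was 51.2%, against the 41.4% of coding genes of 30 CPM or more. Leaving out 1 library left 15 to 20 lower, and upper quartile factors 10. On log2(TPM + 1), 0 were lower, with a median of 0.179. SLC25A32, the mitochondrial folate carrier, fell from 43.3 ± 1.04 to 22.6 ± 1.13 CPM and the glutamate carrier SLC25A22 from 119 ± 2.9 to 73.4 ± 3.27 CPM. CS, citrate synthase, went the other way, from 189 ± 5.77 to 237 ± 7.61 CPM. Folate and one-carbon enzymes split, with 14 lower and 7 higher of 29, and 6 lower and 9 higher with library size alone, where the balance turned. TYMS, thymidylate synthase, fell from 144 ± 7.05 to 94.9 ± 3.69 CPM and MTHFD2, the mitochondrial folate dehydrogenase, from 80.5 ± 4.35 to 52.3 ± 2.71 CPM. GCLM and GCLC, the subunits of the enzyme that starts glutathione synthesis, rose from 129 ± 3.11 to 198 ± 8.77 CPM (GCLM) and from 132 ± 2.4 to 186 ± 7.7 CPM (GCLC). Fatty acid oxidation and peroxisome genes gave 8 lower and 9 higher of 42 (3 and 18), and 5 lower without replicate 3 of siYAP/TAZ#1. The peroxisomal import gene PEX19 fell from 41.2 ± 0.184 to 20.8 ± 0.764 CPM, and CPT1A, which admits fatty acids to mitochondria, rose from 142 ± 2.2 to 187 ± 4.05 CPM.

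Enzymes that handle foreign compounds were higher far more often than lower. Of 48 tested, 27 were higher and 1 lower, with a median of 0.39 (35 and 1). The cytochrome P450 CYP4F3 had 4.37, 4.13, 4.95 and 4.78 CPM in siCo and 16.3, 16.5, 16.5 and 15.5 CPM with siYAP/TAZ#1 (1.83 ± 0.084, adjusted p = 1.71e-10). CYP1A1, which activates aromatic hydrocarbons, rose from 1.11 ± 0.261 to 3.73 ± 0.63 CPM, CYP2S1 from 64.6 ± 1.1 to 94.6 ± 3.26 CPM, and EPHX1, the microsomal epoxide hydrolase, from 106 ± 2.8 to 169 ± 12 CPM. CYP4F12 rose from 1.19 ± 0.141 to 4.72 ± 0.404 CPM, and the CYP4F genes are close paralogs whose reads may be split. ALDH1A3 was the 1 member that fell, from 42.7 ± 1.87 to 29.1 ± 1.7 CPM. Of the ABC transporters, which export drugs and lipids, 12 of 27 were higher and 4 lower (18 and 3). ABCC3 had 574, 568, 552 and 548 CPM and 829, 845, 809 and 838 CPM, ABCC1 rose from 424 ± 2.09 to 584 ± 18.3 CPM and the lipid transporter ABCA12 from 4.21 ± 0.545 to 10.6 ± 1.88 CPM.

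GPX2, a glutathione peroxidase of epithelia, is the gene whose promoter is shown with the antioxidant response element letters. In siCo, GPX2 stood at 39.98, 36.3, 36.2 and 44.2 CPM, against 110.0, 111, 106 and 119 CPM with siYAP/TAZ#1 (1.51 ± 0.068, adjusted p = 1.62e-10). Of 37 selenoproteins and thioredoxin genes, 6 were higher, GPX2 among them, and 8 lower, and with library size alone 13 and 3, where the balance turned. Without replicate 3 of siCo or replicate 2 of siYAP/TAZ#1, 3 were higher. SELENOI, an ethanolamine phosphotransferase, and PRDX6, a peroxiredoxin, fell by 0.82 and 0.50. Zinc, iron and copper handling gave 15 lower and 9 higher of 34. With library size alone it gave 5 lower and 12 higher, so the balance turned. The share lower, 44.1% at a median level of 44.3 CPM, was near the 41.4% of coding genes of 30 CPM or more. Between siYAP/TAZ#1 and siYAP/TAZ#2, 16 of the 34 differed. The zinc importer SLC39A10 had 65.8, 66.04, 65.8 and 73.8 CPM in siCo and 20.4, 18.8, 22.8 and 22.5 CPM with siYAP/TAZ#1 (-1.68 ± 0.097, adjusted p = 2.12e-09). The metallothioneins MT2A and MT1X, which bind zinc and share sequence with other copies, fell from 229 ± 22.8 to 81.3 ± 5.7 CPM (MT2A) and from 20.6 ± 1.85 to 5.67 ± 0.851 CPM (MT1X). SLC40A1, the iron exporter ferroportin, rose from 3.62 ± 0.527 to 10.02 ± 1.31 CPM, and the metal reductases STEAP1 and STEAP2 from 6.72 ± 0.856 to 13.01 ± 0.906 CPM (STEAP1) and from 27.3 ± 2.19 to 47.8 ± 2.24 CPM (STEAP2).

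Secreted proteins best known from liver rose from low levels. Of 47 coagulation and acute phase genes, 23 passed the count filter, with 15 higher and 1 lower (median 0.70; 17 and 1). The fibrinogen chain FGB had 0.337, 0.554, 0.413 and 0.854 CPM in siCo and 2.31, 2.48, 2.97 and 2.45 CPM with siYAP/TAZ#1. FGA rose from 2.36 ± 0.417 to 5.61 ± 0.627 CPM and PROC, protein C, from 0.978 ± 0.309 to 3.39 ± 0.301 CPM. TFPI2 was the 1 that fell, from 57.2 ± 3.2 to 31.9 ± 1.38 CPM. The filter lets a low gene in through the group where it is higher, so the counts of these low groups are a description. Airway defence proteins gave 6 higher and 1 lower of the 11 of 30 that passed (7 and 1). AGR2, a protein disulfide isomerase of mucus-making cells, had 32.5, 34.8, 35.1 and 42.1 CPM and 70.5, 70.3, 69.3 and 87.01 CPM. The gel-forming mucin MUC5AC rose from 80.6 ± 7.84 to 119 ± 3.85 CPM, RNASE4 from 1.66 ± 0.522 to 6.15 ± 1.53 CPM, and DMBT1, a scavenger protein of mucosal surfaces, fell from 4.31 ± 0.295 to 1.501 ± 0.34 CPM.

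Proteases at the cell surface and in the medium gave 9 higher and 5 lower of 37 (18 and 3). The share higher was 24.3% at a median level of 13 CPM. Coding genes of 2.42 to 12.97 CPM had 31.7% higher, and those of 12.98 to 31.9 CPM had 18.7%. ADAM19 fell from 289 ± 6.47 to 175 ± 9.0 CPM. The shedding protease ADAM17 rose from 48.8 ± 1.41 to 72.7 ± 2.07 CPM and matrilysin, MMP7, from 10.1 ± 1.09 to 21.1 ± 1.13 CPM. ADAM17 stood at 26.3 CPM with siYAP/TAZ#2, below siCo, while ADAM19 and MMP7 had 169 and 13.7 CPM there. Protease inhibitors had 3 lower and 3 higher of 19 (2 and 6), with SERPINB8 falling from 12.9 ± 1.61 to 5.97 ± 0.709 CPM and TIMP4 rising from 9.18 ± 0.305 to 13.2 ± 0.604 CPM. Of the S100 calcium-binding proteins, 5 of 11 were lower and 1 higher, and 3 and 4 with library size alone, where the balance turned. S100A16 fell from 259 ± 12.6 to 199 ± 9.23 CPM, and S100A6 was not called, with 471 ± 11.5 CPM in siCo and 495 ± 15.7 CPM with siYAP/TAZ#1.

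The cytoskeleton did not move as a block. Of 27 myosins and regulators, 12 were lower and 8 higher, and with library size alone 8 and 11, where the balance turned. The share lower, 44.4% at a median level of 128 CPM, was near the 45.4% of coding genes of 74.3 to 8556 CPM. ROCK1, a kinase that activates myosin, had 80, 80.7, 77.2 and 82.6 CPM in siCo and 43.2, 40.9, 39.5 and 40.8 CPM with siYAP/TAZ#1 (-0.96 ± 0.055, adjusted p = 2.02e-09). The class I myosins MYO1E and MYO1C fell from 529 ± 9.42 to 297 ± 7.43 CPM (MYO1E) and from 578 ± 18.5 to 368 ± 13.1 CPM (MYO1C), and MYO6, which moves to the minus end of actin, rose from 20.8 ± 1.15 to 29.6 ± 1.0 CPM. The atypical small GTPase genes RND1 and RND3 went apart: RND1 had 4.37, 4.68, 3.71 and 4.27 CPM and 14.8, 14.8, 14.99 and 16.8 CPM, and RND3 fell from 42.6 ± 1.15 to 21.7 ± 1.22 CPM. RHOB fell from 290.1 ± 29.5 to 201 ± 9.34 CPM, but stood at 454 CPM with siYAP/TAZ#2, above siCo. ROCK1, MYO1E and MYO1C had 79.9, 544 and 529 CPM with siYAP/TAZ#2, closer to siCo than with siYAP/TAZ#1. MYO6, RND1 and RND3 had 32.2, 12.5 and 26.0 CPM there, on the same side of siCo with both combinations.

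The GTPase-activating genes STARD13 and DLC1 fell from 14.3 ± 0.371 to 6.65 ± 0.396 CPM (STARD13) and from 8.49 ± 0.255 to 3.76 ± 0.161 CPM (DLC1). The exchange factor TRIO fell from 369 ± 11.7 to 235 ± 3.22 CPM, while its mean TPM was 50.5 in siCo and 49.4 with siYAP/TAZ#1. The exchange factor VAV3 rose from 7.196 ± 0.391 to 14.9 ± 0.893 CPM. Formins, septins and capping proteins had 8 lower and 6 higher of 27 (4 and 9, again a turn). GSN, gelsolin, which cuts actin filaments, rose from 39.3 ± 1.77 to 66.1 ± 2.88 CPM, and DIAPH3, a formin, fell from 46.8 ± 3.31 to 30.95 ± 1.43 CPM.

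In tubulins and microtubule proteins, 14 of 28 were lower and 9 higher (9 of each with library size alone). That is 50% lower at a median level of 101 CPM, beside 45.4% of coding genes of 74.3 to 8556 CPM. Isotypes differed in direction. TUBA1C fell from 788 ± 35.7 to 441 ± 21.9 CPM and TUBB6 from 152 ± 4.87 to 89.2 ± 6.41 CPM, while TUBA1A had 186, 187, 168 and 189 CPM in siCo and 321, 328, 297 and 344 CPM with siYAP/TAZ#1, and tubulin genes are close paralogs. MAP1A, a microtubule-stabilising protein, rose from 18.9 ± 1.73 to 53.6 ± 2.43 CPM (1.505 ± 0.091, adjusted p = 3.64e-09). Kinesins and dyneins gave 20 lower and 7 higher of 36 (10 and 9). KIF5B, a carrier of vesicles and mitochondria, fell from 304 ± 12.1 to 179 ± 4.37 CPM and the cytokinesis motor KIF23 from 97.4 ± 5.04 to 64.04 ± 3.95 CPM, and KIF13B rose from 56.2 ± 1.06 to 93.2 ± 2.63 CPM. Genes of the primary cilium gave 11 higher and 2 lower of 40 (18 and 0), all by less than 1. Without replicate 2 or 3 of siCo or replicate 4 of siYAP/TAZ#1, 7 were higher. The share higher was 27.5% at a median level of 17.8 CPM, beside 18.7% of coding genes of 12.98 to 31.9 CPM. Among those that rose were IFT140 from 36 ± 1.83 to 48.8 ± 2.69 CPM and BBS1 from 14.8 ± 0.406 to 20.6 ± 2.07 CPM.

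Potassium and calcium channel genes were more often higher than lower. Of 45 tested, 20 were higher and 7 lower (23 and 6). ORAI3, a store-operated calcium channel, had 14.8, 14.7, 15.3 and 15.1 CPM in siCo and 42.01, 45.04, 39.8 and 39.2 CPM with siYAP/TAZ#1 (1.47 ± 0.080, adjusted p = 1.16e-09). The calcium channel CACNA1D rose from 8.67 ± 0.163 to 21.7 ± 2.09 CPM, and the potassium channel KCNH1 fell from 52.4 ± 2.2 to 22.2 ± 0.952 CPM. Bicarbonate, chloride and proton transport had 14 higher and 10 lower of 41 (17 and 5), with the sulfate carrier SLC26A2 falling from 145 ± 8.28 to 50.02 ± 2.49 CPM and the chloride importer SLC12A2 rising from 86.7 ± 2.26 to 127 ± 4.66 CPM. Ion-pumping ATPases had 9 in each direction of 40, and 2 lower and 15 higher with library size alone. ATP2A3, a calcium pump of the endoplasmic reticulum, rose from 12.4 ± 1.25 to 32.8 ± 2.98 CPM.

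Carriers for nutrients divided. Of 26 amino acid carriers, 10 were higher and 7 lower (14 and 4). Between siYAP/TAZ#1 and siYAP/TAZ#2, 13 of the 26 differed, beside 15.1% of all genes tested. The cationic carriers SLC7A1 and SLC7A2 went in opposite directions, the first from 259.5 ± 7.31 to 162 ± 6.13 CPM and the second from 7.44 ± 0.618 to 16.5 ± 1.46 CPM. SLC7A6 had 114, 113, 113 and 118 CPM in siCo and 53.5, 51.2, 50.3 and 53.7 CPM with siYAP/TAZ#1. Sugar, nucleoside and monocarboxylate carriers had 9 higher and 8 lower of 27 (12 and 5). The glucose carriers SLC2A3 and SLC2A1 fell from 53.5 ± 6.78 to 22.1 ± 0.956 CPM (SLC2A3) and from 443 ± 15.9 to 318 ± 17.6 CPM (SLC2A1).

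Lipid and glycan enzymes changed in both directions. Sphingolipid and phospholipid enzymes had 21 higher and 17 lower of 55 (27 and 9). LPCAT1, which makes the phosphatidylcholine of surfactant, had 439, 414, 450.5 and 400.1 CPM in siCo and 189, 207, 189 and 173 CPM with siYAP/TAZ#1 (-1.17 ± 0.082, adjusted p = 1.92e-08). SPTLC1, a subunit of the enzyme that starts sphingolipid synthesis, fell from 58.99 ± 3.09 to 26.98 ± 1.07 CPM, and PLA2G4A, which frees arachidonic acid, rose from 20.8 ± 1.03 to 42.9 ± 2.54 CPM. Of 18 eicosanoid genes, 6 were higher and 4 lower (9 and 1), with 2 lower without replicate 1 of siYAP/TAZ#1. PTGS2, the inducible cyclooxygenase COX-2, had 90.5, 92, 91.6 and 107 CPM and 198, 176, 186 and 206 CPM, and the prostaglandin E receptor PTGER4 fell from 6.65 ± 0.728 to 3.65 ± 0.359 CPM.

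N-glycan and O-glycan enzymes gave 16 lower and 8 higher of 57, and 7 lower and 19 higher with library size alone, where the balance turned. C1GALT1, which builds the core of mucin-type O-glycans, fell from 27.4 ± 2.83 to 13.1 ± 1.45 CPM, and GALNT18 from 37.96 ± 2.31 to 18.5 ± 0.707 CPM, while GALNT4 rose from 7.06 ± 0.404 to 12.1 ± 0.347 CPM. Proteoglycans and their enzymes gave 12 lower and 10 higher of 43 (6 and 16, a turn as well). HAS3, a hyaluronan synthase, had 193, 198, 189 and 191 CPM in siCo and 82.9, 82.6, 78.6 and 78.9 CPM with siYAP/TAZ#1 (-1.25 ± 0.049, adjusted p = 2.89e-11). HAS2, another synthase, and SDC4, a syndecan, fell from 18.8 ± 1.48 to 10.2 ± 1.2 CPM (HAS2) and from 63.9 ± 1.97 to 31.9 ± 2.07 CPM (SDC4), whereas the hyaluronan-binding core protein VCAN rose from 94.5 ± 4.08 to 158 ± 7.98 CPM.

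Receptors and guidance molecules changed in both directions. Of 63 G protein-coupled receptors and their regulators, 23 were higher and 16 lower (29 and 12). S1PR3, a sphingosine-1-phosphate receptor, fell from 92.3 ± 1.03 to 45.5 ± 2.11 CPM, while S1PR2, another receptor of that ligand, rose from 2.16 ± 0.28 to 5.25 ± 0.464 CPM. The retinoic acid-induced GPRC5A fell from 343 ± 13.8 to 164 ± 7.31 CPM, and the beta-arrestin ARRB1 rose from 11.9 ± 0.856 to 26.8 ± 0.823 CPM. Among semaphorins, netrins, slits and their receptors, 16 were higher and 9 lower of 39 (19 and 5). ROBO1, a receptor for slit proteins, had 32.9, 31.9, 31.2 and 32.9 CPM in siCo and 96.9, 105, 92.04 and 105 CPM with siYAP/TAZ#1 (1.63 ± 0.059, adjusted p = 1.35e-11). NRP2, a co-receptor for semaphorins and VEGF-C, went the other way. In siCo, NRP2 stood at 207, 203, 201 and 207 CPM, against 101, 98.6, 102 and 102 CPM with siYAP/TAZ#1 (-1.02 ± 0.046, adjusted p = 1.62e-10).

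Growth factor signalling of the FGF, PDGF, VEGF and HGF families gave 11 higher and 8 lower of 33 (15 and 4). The share higher, 33.3% at a median level of 10.8 CPM, was near the 31.7% of coding genes of 2.42 to 12.97 CPM. The ligands PDGFB and ANGPTL4 fell from 8.54 ± 0.533 to 4.17 ± 0.348 CPM (PDGFB) and from 26.4 ± 1.15 to 9.93 ± 0.367 CPM (ANGPTL4), and the receptors FGFR4 and FGFR3 rose from 111 ± 4.56 to 169 ± 12.2 CPM (FGFR4) and from 7.05 ± 0.722 to 13.01 ± 1.13 CPM (FGFR3). Cyclic nucleotide enzymes had 9 in each direction of 43 (6 lower and 17 higher), with 5 higher without replicate 4 of siCo or replicate 3 of siYAP/TAZ#1. The adenylyl cyclase ADCY9 fell from 63.1 ± 1.98 to 33.4 ± 1.51 CPM, and the phosphodiesterase PDE3A rose from 1.93 ± 0.32 to 6.12 ± 0.447 CPM. Tetraspanins and other surface glycoproteins had 17 higher and 10 lower of 48 (24 and 7). The higher members were 9 without replicate 1 of siCo and 11 without replicate 1, 2 or 4 of siYAP/TAZ#1. Examples are the tetraspanin gene TSPAN6, which fell from 24.1 ± 2.27 to 12.6 ± 0.417 CPM, and the adhesion molecule CEACAM6, which rose from 11.3 ± 1.47 to 23.5 ± 3.07 CPM.

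Sensors and adaptors of innate immunity were more often higher, 17 against 6 lower of 48 (26 and 4). MYD88, the adaptor of Toll-like receptors, had 32.4, 30.1, 27.2 and 32.1 CPM in siCo and 51.7, 54.6, 49.03 and 54.99 CPM with siYAP/TAZ#1. The RNA sensors RIGI and IFIH1 rose from 7.88 ± 0.736 to 13.7 ± 0.797 CPM (RIGI) and from 1.23 ± 0.127 to 2.94 ± 0.407 CPM (IFIH1). OTULIN, which removes linear ubiquitin chains, fell from 46.3 ± 1.53 to 28.2 ± 0.984 CPM. Ubiquitin ligases and adaptors had 33 lower and 25 higher of 98, and 19 lower and 37 higher with library size alone, where the balance turned. NEDD4, a HECT ligase, had 205, 199, 203 and 229 CPM and 91.2, 83.5, 88.3 and 93.9 CPM (-1.23 ± 0.089, adjusted p = 2.97e-08). Its mean TPM was 29.96 in siCo and 26.5 with siYAP/TAZ#1, a smaller difference. UBE3A fell from 73.3 ± 1.6 to 44.04 ± 1.33 CPM and RNF103 rose from 35.7 ± 1.87 to 63.3 ± 6.2 CPM.

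Vesicle coats, SNAREs and Rab GTPases gave 29 lower and 14 higher of 84, and 14 lower and 26 higher with library size alone, a turn. Of the 84, 40 differed between siYAP/TAZ#1 and siYAP/TAZ#2, beside 15.1% of all genes tested. The SNARE YKT6 fell from 119 ± 3.86 to 61.6 ± 2.51 CPM and the early endosome GTPase RAB5A from 34.3 ± 3.23 to 15.7 ± 1.84 CPM. RAB5A stood at 34.7 CPM with siYAP/TAZ#2, near its siCo mean. The secretory Rab genes RAB26 and RAB3D rose from 6.09 ± 0.463 to 14.99 ± 0.826 CPM (RAB26) and from 35.7 ± 2.31 to 60.2 ± 0.631 CPM (RAB3D), while RAB3B fell from 158 ± 4.16 to 95.4 ± 3.0 CPM.

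In the nucleus, histone modifiers and remodellers gave 29 lower and 11 higher of 92, and 16 lower and 30 higher with library size alone, where the balance turned. UHRF1, which brings the maintenance DNA methyltransferase to replicated DNA, fell from 200.1 ± 10.1 to 72.9 ± 4.6 CPM, and RNF2, a Polycomb ubiquitin ligase, from 19.5 ± 0.826 to 8.397 ± 0.678 CPM. SIRT2, a deacetylase, had 37.5, 37.2, 36.4 and 36.7 CPM in siCo and 63.4, 69.2, 63.1 and 67.8 CPM with siYAP/TAZ#1, CBX7 rose from 8.07 ± 0.329 to 14.7 ± 1.04 CPM, and the de novo methyltransferase DNMT3A from 25.8 ± 1.47 to 42.7 ± 2.16 CPM. DNA repair genes had 25 lower and 5 higher of 80 (8 and 10, a turn). Leaving out replicate 1, 2, 3 or 4 of siCo, or 3 or 4 of siYAP/TAZ#1, left 1 to 3 of them higher. The share lower, 31.2% at a median level of 26.7 CPM, was near the 29.6% of coding genes of 12.98 to 31.9 CPM. FANCC fell from 27.1 ± 1.33 to 16.2 ± 1.18 CPM and the excision repair helicase ERCC2 from 51.8 ± 0.714 to 33 ± 1.21 CPM. Replication-dependent histone genes, of which 42 passed the filter, had 7 lower and 1 higher (0 and 1), and 2 to 4 were lower without any 1 of the 8 libraries. Their lowest adjusted p was that of H2BC18 (adjusted p = 0.0135), and histone genes share sequence.

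HOX, FOX, SOX and GATA genes are to be read against coding genes of 2.42 to 12.97 CPM, of which 12.1% were lower and 31.7% higher. Of 64 tested, 16 were higher and 10 lower (28 and 5), which is 25% and 15.6% at a median level of 10.1 CPM. The share higher was thus not above that of coding genes of this level. FOXA1, a pioneer factor of endodermal epithelia, had 4.803, 5.79, 5.48 and 4.89 CPM in siCo and 8.68, 11.9, 9.996 and 9.31 CPM with siYAP/TAZ#1, and HOXB13 rose from 12.4 ± 0.889 to 21.6 ± 1.88 CPM. FOXC2, a factor of mesenchyme and lymphatic vessels, fell from 10.2 ± 1.76 to 4.42 ± 0.773 CPM. Nuclear receptors and clock genes had 16 higher and 10 lower of 55 (24 and 2), with 6 lower without replicate 1 or 3 of siYAP/TAZ#1. HNF4A, a receptor of liver and gut epithelium, had 36.7, 34.6, 37.1 and 36.3 CPM and 57.1, 60.4, 53.7 and 57.7 CPM (0.66 ± 0.058, adjusted p = 2.17e-07). CLOCK, a clock transcription factor, rose from 21.1 ± 2.28 to 38.7 ± 1.29 CPM.

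Marker genes were read to check the cells and what else could be present. Of 13 simple epithelial markers, 9 had at least 1 CPM in both groups, and 6 of the 9 tested were higher and 1 lower. CLDN7, ESRP1, GRHL2 and OVOL1 were under 0.1 CPM in both groups. ELF3, an epithelial ETS factor, had 106, 116, 105 and 108 CPM in siCo and 243, 259, 226 and 245 CPM with siYAP/TAZ#1, and CDH1, E-cadherin, rose from 25.5 ± 2.39 to 53.6 ± 1.54 CPM. KRT8, a keratin of simple epithelium, was not called, with 2383 ± 135 CPM in siCo and 2503 ± 132 CPM with siYAP/TAZ#1. The summed level of the list, which keratins dominate, was 6871 to 7783 CPM in siCo and 5913 to 6636 CPM with siYAP/TAZ#1. Of 18 lung epithelial lineage markers, 3 reached 1 CPM in siCo and 6 with siYAP/TAZ#1, and NKX2-1, SFTPA1, SFTPA2, SFTPC, PDPN, AQP5, SCGB1A1 and KRT5 were under 0.1 CPM in both groups. The surfactant genes that define alveolar type II cells were thus near 0 in this line. TP63, a factor of basal cells, rose from 0.815 ± 0.265 to 3.64 ± 0.307 CPM and FOXJ1, a factor of ciliated cells, from 0.246 ± 0.153 to 1.19 ± 0.194 CPM, both low. CAV1, high in flat alveolar cells, fell from 326 ± 20.5 to 215 ± 11.4 CPM.

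Markers of other cell types were read in the same way. Of 10 endothelial markers, 1 reached 1 CPM in each group, and CDH5, VWF, KDR, TEK, CLDN5, ERG and PLVAP were under 0.1 CPM; the summed level was 4.14 to 5.12 CPM in siCo and 5.54 to 6.34 CPM with siYAP/TAZ#1. Of 11 leukocyte markers, 4 reached 1 CPM in each group, CD3E, CD3D and MS4A1 were under 0.1 CPM, and the sums were 32.1 to 35.9 and 34.02 to 37.9 CPM. CD14, a surface receptor also found outside leukocytes, rose from 2.23 ± 0.307 to 5.76 ± 0.437 CPM. Of 10 fibroblast markers, 2 reached 1 CPM in each group, POSTN and DPT were under 0.1 CPM, and the sums, 171 to 186 CPM and 214 to 251 CPM, held mainly COL1A1 and FBLN1, of which COL1A1 rose from 110.0 ± 5.68 to 153 ± 12.9 CPM. Of 16 neuronal markers, 8 reached 1 CPM in each group, with sums of 1352 to 1392 and 1068 to 1170 CPM, and GAP43, NEFM, STMN2, DCX and NCAM1 were under 0.1 CPM. RBFOX3, known as the neuronal nuclear antigen NeuN, rose from 7.64 ± 0.788 to 16.7 ± 0.817 CPM, and TUBB3 fell from 844 ± 14.1 to 528 ± 40.1 CPM. The part of other cells in any result was not tested.

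The second combination was then set beside the first. Tested directly against each other, where siCo cancels, siYAP/TAZ#1 was lower than siYAP/TAZ#2 in 1769 genes (8.20%) and higher in 1493 (6.92%), 15.1% of all genes in either direction. Of the genes lower with siYAP/TAZ#1 than in siCo, 890 were also lower than with siYAP/TAZ#2, and of those higher than in siCo, 461 were also higher than with siYAP/TAZ#2. Of the 15 coding genes with the largest decreases, 13 lay further from siCo than with siYAP/TAZ#2, and 2, LY6K and FOSL1, did not differ at an adjusted p under 0.05. Of the 15 with the largest increases, 5 lay further, 3 (CEND1, BDKRB2 and LRRC4B) less far, and 7 did not differ at that threshold. These genes were chosen for their change with siYAP/TAZ#1 and the direct test uses the same libraries, which favours a larger change there, so these counts are a description. YAP1 and WWTR1 differed between the combinations by 0.11 ± 0.069 and 0.020 ± 0.062 on the log2 scale (adjusted p = 0.367 and 0.897, edgeR's quasi-likelihood test). Without replicate 1 of siYAP/TAZ#2, whose TMM factor of 0.967 was below the 1.05 to 1.10 of the others in that group, the direct counts were 2840 lower and 2287 higher.

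Some decreases were much larger with the first combination than with the second. MAT2B, the regulatory subunit of the enzyme that makes S-adenosylmethionine, had 29.03, 29.8, 28.8 and 30.9 CPM in siCo, 5.07, 4.79, 4.77 and 5.65 CPM with siYAP/TAZ#1 and 27.97, 33.2, 38.7 and 35.9 CPM with siYAP/TAZ#2. Its difference between the combinations was -2.74 ± 0.099 (adjusted p = 2.11e-11, edgeR). MPC2, a subunit of the mitochondrial pyruvate carrier, had 48.7, 53.6, 53.8 and 55.9, 12.5, 13.2, 10.9 and 10.96 and 82.03, 66.1, 74.1 and 71.9 CPM in the same order of groups (-2.63 ± 0.084, adjusted p = 7.52e-12). Both genes were low in the siYAP/TAZ#1 libraries alone. CNIH1, a cornichon family gene of export from the endoplasmic reticulum, had 69.2, 9.72 and 41.2 CPM on average, and the centromere genes MIS18A and CENPQ had 9.605, 1.84 and 7.77 CPM and 4.54, 1.17 and 4.23 CPM. EPAS1 was lower with both combinations but stood at 86.1 CPM with the first and 327 CPM with the second (-1.92 ± 0.052, adjusted p = 1.11e-12). LINC00707 showed 1.59 and 6.96 CPM, TMEM184C 10.4 and 31.2 CPM, and GALNT12, at 3.63 CPM in siCo, 1.74 and 6.999 CPM. Among fallers named with the lists, S1PR3, C1GALT1, ADCY9, TSPAN6 and IPO8 had 101, 34.7, 71.3, 25.7 and 60.0 CPM with siYAP/TAZ#2. Their siCo means were 92.3, 27.4, 63.1, 24.1 and 63.5 CPM. Others, such as ADAM19 and LPCAT1, did not differ between the combinations at an adjusted p under 0.05.

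Increases larger than with the second combination were led by FAM3C, a secreted cytokine-like protein gene. It had 14.4, 14.8, 15.3 and 15.6 CPM in siCo, 33.8, 29.9, 33.5 and 37.8 CPM with siYAP/TAZ#1 and 5.97, 7.96, 9.56 and 7.17 CPM with siYAP/TAZ#2 (2.13 ± 0.11, adjusted p = 1.71e-09). The combinations thus lay on opposite sides of siCo, and the pseudogene FAM3C2P, which shares its sequence, had 2.26, 5.55 and 1.71 CPM. SCML1, a Polycomb-like gene, had 8.33, 19.2 and 7.17 CPM, PDCD4, an inhibitor of translation initiation, 7.38, 14.8 and 6.06 CPM, and the p53-induced TP53INP1 10.4, 24.6 and 10.1 CPM. The protease-activated receptor gene F2RL2 had 6.52, 8.101, 7.13 and 7.597 CPM in siCo, 22.7, 22.8, 23.5 and 25.5 CPM with siYAP/TAZ#1 and 8.62, 9.87, 10.5 and 10.3 CPM with siYAP/TAZ#2. The prostaglandin receptor PTGER2 and the pseudogene KRTAP9-12P, both near 1 CPM, completed the 8, with differences of 1.57 and 1.97. Among risers named with the lists, ADAM17, GCLM, SLC7A2 and CBX7 had 26.3, 117, 7.15 and 5.94 CPM with siYAP/TAZ#2. Their siCo means were 48.8, 129, 7.44 and 8.07 CPM. Others, such as ABCC3 and HNF4A, did not differ between the combinations at an adjusted p under 0.05. The sequences of the siRNAs were not used here, and which differences come from siRNA sequence was not tested.

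**Figure D5:**
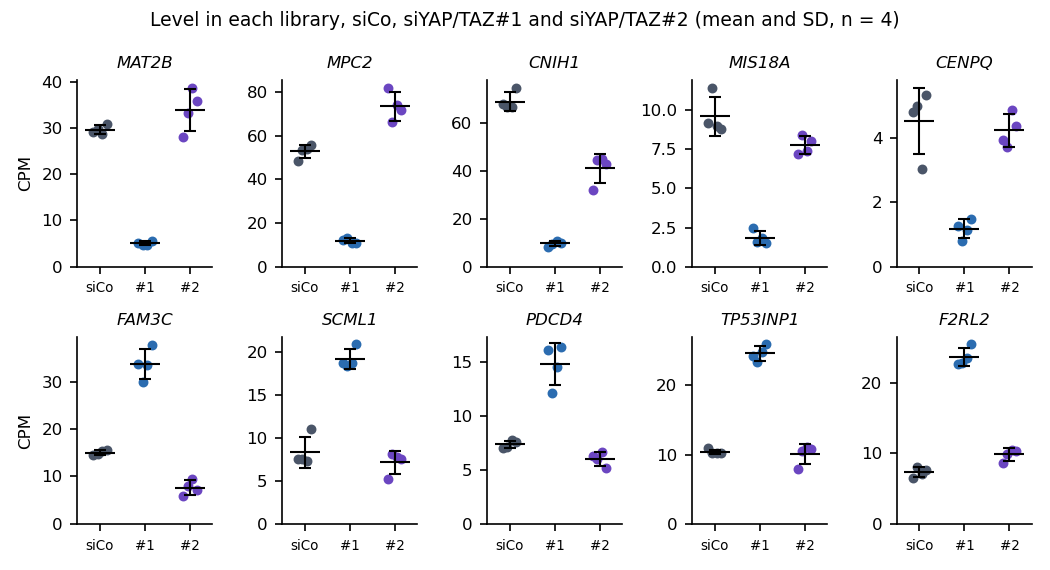
Points are the CPM of single libraries in siCo, siYAP/TAZ#1 (#1) and siYAP/TAZ#2 (#2) for 5 genes lower (MAT2B, MPC2, CNIH1, MIS18A, CENPQ) and 5 higher (FAM3C, SCML1, PDCD4, TP53INP1, F2RL2) with the first combination than with the second, with mean and SD of 4 libraries. MAT2B stands at 29.6, 5.07 and 33.9 CPM in the 3 groups, and FAM3C at 15.04, 33.7 and 7.67 CPM.

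The 8 libraries held 30.1 to 38.3 times 1e6 estimated counts each, and a count of 10 corresponded to 0.25 to 0.375 CPM. TMM factors were 0.887 to 0.944 in siCo and 1.00 to 1.07 with siYAP/TAZ#1, without overlap, and their part in the split between lower and higher genes was not tested beyond the scalings given above. Between libraries of a group, Pearson's r of log2 CPM ran from 0.991 to 0.997 over 11644 genes, and from 0.961 to 0.969 between the groups, as a description across genes.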

How the data were processed

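Total RNA of A549 cells with an integrity number above 7 was sequenced on a BGISEQ-500 instrument, per the labels' protocols. The authors deposited 2 tables per library: estimated counts per Ensembl gene, without scaling, and TPM. Trim Galore 0.6.4, kallisto 0.4.6 and GRCh38.p13 are listed, with no role or order, in the notes of the submitters on processing. The transcript annotation, the summing to genes and the use of strand are not given in the sources used here. For 60617 identifiers, 58444 were found in GENCODE v29 (GRCh38) for class and position and 60357 in a table of symbols.

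Estimated counts were rounded and tested in edgeR 4.0.16 (R 4.3.3) with TMM scaling, filterByExpr defaults (minimum count 10), group as the only term over all 12 libraries, the quasi-likelihood F test and Benjamini-Hochberg adjustment over 21581 genes. Standard errors come from the log2 change and its F value. The biological coefficient of variation was 0.105. CPM values are mean ± SD over n = 4 libraries. The step was tested on simulated data with equal numbers of rises and falls, which cannot check the dependence on scaling. Alternatives were other scalings, filters and libraries, DESeq2 1.42.0, a replicate block, and limma 3.58.1 on log2(TPM + 1) or log2(TPM + 0.1), where a change of a low gene is understated.

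Groups came from the titles. The genes, lists and comparisons were chosen with earlier results of these data known. Named genes are YAP1 and WWTR1; outside the target and Hippo lists, the 15 coding genes per direction with the largest change, no overlap between groups and at least 5 CPM; 8 lncRNA genes per direction likewise at 1 CPM; the 10 per direction with the largest difference in CPM; up to 6 called members per list by adjusted p, of which those in the text were chosen after their values were seen, and members that were not called; and the 8 per direction most different between the combinations. Identifiers without a symbol are not named, and a few genes and 2 lists that these rules name are not reported here. Lists were described without a test, and 2040 of their 2237 genes passed the filter.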

Additional observations from a re-analysis of the deposited data

Results flagged for a closer look

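The response differed between the combinations in 3262 genes, tested directly between siYAP/TAZ#1 and siYAP/TAZ#2 with edgeR. The genes that differ most are given above.

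For 235 genes, the 4 libraries of siCo and of siYAP/TAZ#1 were checked for 1 library whose gap to the nearest of the others exceeded Dixon's critical share of the range for 4 libraries. This held for 36 of 470 sets of 4 libraries, where chance gives about 1 in 20, or 23.5. Of these, 15 were in replicate 4 of siCo. Replicate 1 of siCo lay above the other 3 libraries of its group for PTP4A3 (2.63 against 2.34 to 2.39 CPM) and TP53INP1 (10.9 against 10.16 to 10.24 CPM). Replicate 1 of siCo lay below the other 3 libraries of its group for IFIH1 (1.04 against 1.27 to 1.31 CPM). Replicate 2 of siCo lay above the other 3 libraries of its group for CPT1A (146 against 141.3 to 141.4 CPM) and MIS18A (11.4 against 8.82 to 9.21 CPM). Replicate 2 of siCo lay below the other 3 libraries of its group for LRRC4B (0.924 against 1.44 to 1.54 CPM) and TUBB6 (144 against 153 to 154 CPM). Replicate 3 of siCo lay above the other 3 libraries of its group for FOXC2 (12.8 against 9.11 to 9.67 CPM). Replicate 3 of siCo lay below the other 3 libraries of its group for TUBA1A (168 against 186 to 188 CPM). Replicate 4 of siCo lay above the other 3 libraries of its group for CNIH1 (74.9 against 66.96 to 67.98 CPM), CS (198 against 186 to 187 CPM), EPAS1 (913 against 898 to 899 CPM), GCLM (134 against 127 to 128 CPM), MYBL1 (52.98 against 47.2 to 48.2 CPM), PTGS2 (107 against 90.5 to 92 CPM), RAB3B (164 against 156 to 157 CPM), SCML1 (11.01 against 7.28 to 7.53 CPM), SERPINB8 (15.3 against 11.99 to 12.2 CPM), SLC39A10 (73.8 against 65.8 to 66.04 CPM), STEAP2 (30.6 against 25.9 to 26.6 CPM) and VCAN (101 against 92.2 to 92.6 CPM). Replicate 4 of siCo lay below the other 3 libraries of its group for FGFR4 (105 against 113 to 114 CPM), SLC7A5 (5161 against 5440.0 to 5474 CPM) and VPS9D1-AS1 (58.98 against 64.2 to 64.3 CPM). Replicate 2 of siYAP/TAZ#1 lay above the other 3 libraries of its group for CBX7 (16.3 against 14.16 to 14.23 CPM), GSN (70.4 against 64.4 to 64.9 CPM), IFT140 (52.9 against 47.4 to 47.6 CPM) and SLC7A5 (4060.0 against 3626 to 3700.0 CPM). Replicate 2 of siYAP/TAZ#1 lay below the other 3 libraries of its group for NRP2 (98.6 against 101 to 102 CPM). Replicate 3 of siYAP/TAZ#1 lay above the other 3 libraries of its group for MUC5AC (125 against 116 to 117 CPM). Replicate 4 of siYAP/TAZ#1 lay above the other 3 libraries of its group for AGR2 (87.01 against 69.3 to 70.5 CPM), CADM1 (13.8 against 12.5 to 12.7 CPM), FAM3C2P (6.75 against 5.04 to 5.32 CPM), RAB5A (18.4 against 14.4 to 14.99 CPM), RND1 (16.8 against 14.8 to 14.99 CPM) and SCML1 (20.9 against 18.4 to 18.8 CPM).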

How the results depend on the processing

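YAP1 and WWTR1 kept direction and call under every alternative run, with log2 changes of -2.74 to -2.52 and -2.90 to -2.70 on counts and -2.10 to -1.99 and -1.87 to -1.82 on TPM. Leaving out each library in turn gave 3446 to 3726 lower and 3108 to 3213 higher genes, 305 to 326 and 831 to 869 by at least 1, changes of -2.74 to -2.66 for YAP1 and -2.90 to -2.85 for WWTR1, and 2541 to 5127 genes that differ between the combinations, the highest without replicate 1 of siYAP/TAZ#2. Library size alone gave 1905 lower and 5876 higher genes (179 and 1366 by at least 1). On TPM with limma, a pseudocount of 1 gave 156 and 1736 (57 and 313), a pseudocount of 0.1 gave 172 and 2137 (94 and 1293), and genes of at least 1 TPM in 4 libraries gave 138 and 1287 (60 and 334), with 117, 118 and 109 genes that differ between the combinations. A minimum count of 50 left 535 genes higher by at least 1, among fewer genes tested. Otherwise the cause was not tested. Of 233 named genes, 231 were called. DESeq2 lost the call of 1, MIR663AHG. Without 1 library, 2 lost it, FLNA and MIR663AHG, as they did with a minimum count of 50. Upper quartile factors and library size alone lost 4, these and ACTB and H2BC18. The TPM fits lost 93 to 98, and ACTB (0.144) and FLNA (0.0104) turned positive there. Some alternatives tested no value for the lowest genes. Deviations of same-numbered siCo and siYAP/TAZ#1 libraries correlated at 0.0561 to 0.510, and those of other pairs at -0.491 to 0.441. Of 4 siCo libraries, 3 correlated best with their own number. The main fit did not use the replicate numbers of the titles. With the replicate block, 4060 genes were lower and 3561 higher, and no named gene lost its call. Depth limits genes under about 0.375 CPM, the value of 10 counts in the shallowest of the 8 libraries.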
